A study of Oncorhynchus kisutch with 226 samples.

Results

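The 150 array probes described here had, among 6 life stages of coho salmon (Oncorhynchus kisutch), a mean liver ratio that was lower in parr than in every other stage. They were chosen from the stage means themselves. Of 43567 probes on the array, 16802 were measured on at least 80% of the 226 arrays. For each of these the 6 stage means were sorted, and a probe was taken where the widest gap between neighbouring means was at least 0.4 on the log2 scale and left parr alone below the other 5 stages. That held for 1179 probes, and the 150 with the widest gap were kept. The mirror rule, parr alone above, held for 934 probes.

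Each array carried liver RNA of 1 fish beside a pool of liver RNA from all samples, in the other of 2 Alexa dyes. A value is the log2 ratio of the fish to that pool, so 0 is the level of the pool and a value below 0 is lower than the pool. That the fish is the numerator is likely from the values, and the labels do not say it. Were it the pool, every "low" would read "high".

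The groups were 8 parr, 54 smolts and fish caught at sea in spring (14), summer (67), fall (71) and winter (12). All 8 parr were hatchery fish of the Chilliwack River from 2008, with a fork length of 5.10 ± 0.262 cm (SD, n = 8) and a sex given as unknown. The smolts were of 11.2 ± 1.38 cm (n = 54) and came from 6 river-by-origin groups. Wild smolts came from the Chilliwack (8, all of 2008), the Capilano (10) and the Salmon River (7), and hatchery smolts from the Capilano (10), the Chehalis (9) and the Puntledge (10), the last 5 groups all of 2009. The spring fish were wild fish of the southern Strait of Georgia. Summer, fall and winter fish were wild and hatchery fish of the Strait and of the west coast area, and the labels give them several stocks, which differed between these areas among the wild fish of 2009. No parr from another river, year or rearing origin is among these samples. For parr, life stage, river, year, hatchery rearing and small size therefore cannot be told apart in the stage means.

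Parr are the stage of young salmon that hold and feed in the river, and smolts are the stage that migrates to sea. Smolting changes the hormones that reach the liver, among them thyroid hormone, cortisol and growth hormone. In response to growth hormone the liver makes insulin-like growth factor. The liver also stores glycogen and fat, makes plasma proteins and bile acids, and clears foreign compounds. The files pair the probes with an array column and row and with no gene name, and the table of coho genes at hand does not list them. No gene or sequence is therefore named below, and the liver identity of the samples was not checked against marker genes.

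Before the values, the arrays that stood apart need stating. The number of probes measured per array ran from 12760 to 30826, and from 18185 to 25860 among parr. The 8 parr lay on 2 of 60 slides, 4 on each, and neither slide held a fish of another stage, so that for parr a slide effect and the stage cannot be told apart. Parr 1 differed from the other parr. Its ratios had the smallest spread, with an SD over all probes of 0.567 against 0.771 to 1.42 in the other 7, and its correlation with the mean of the other parr was 0.41 across probes, which are not independent replicates. Parr 5 had the widest spread, with an SD of 1.42, and a correlation of 0.38.

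In the members, the gap ran from 1.27 to 3.18 on the log2 scale, with a median of 1.5, which is 2.83-fold. Just inside the limit of 150 lay probe C151R115 with a gap of 1.266, and just outside it C040R168 with 1.262. The members' stage means had a median of -2.34 in parr. Smolts had a median of -0.60 and spring fish one of -0.47. The later catches were closer to the pool, with -0.22 for summer, -0.06 for fall and -0.07 for winter. That parr lay lowest was the rule. The order among the other 5 stages was not set by it: the stage next above parr was smolt for 64 members and ocean spring for 58, and winter, fall and summer for 13, 8 and 7. The highest stage was winter for 60 members, fall for 47, summer for 17, spring for 16 and smolt for 10. For 77 of the 150 members, smolt and spring both lay below summer, fall and winter. These are orders of means and were not tested. The same orders were not counted over all probes, so they are not shown to be particular to the members. In whole liver, less RNA per cell and fewer cells of a type cannot be told apart.

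The median over the members in each parr was -0.82 in parr 1, then -2.83, -2.64, -2.21, -3.61, -2.06, -2.62 and -3.00 in parr 2 to 8. Parr 1 was the highest parr for 113 members and parr 5 the lowest for 79. In parr 1, 58 members lay above -0.5. Over the 218 fish of other stages the median per fish ran from -1.94 to 1.18, with a middle value of -0.24. Of these fish, 17 lay below parr 1 and none lay below the second highest parr, at -2.06. These medians are over probes chosen to be low in parr. In single members, parr and other fish overlapped. The median member had 56 fish of other stages below its highest parr (from 4 to 195 over the members). With parr 1 left out, that number was 16 (from 0 to 195). Without parr 1, the highest parr for most members, the gap in the median member was 1.72. That all 150 probes then still met the rule was largely set in advance, and 133 of them were among the 150 with the widest gap. Without parr 5 the latter number was 113. The SD between parr was 1.10 in the median member, and for 12 members the gap was smaller than that SD.

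**Figure D1:**
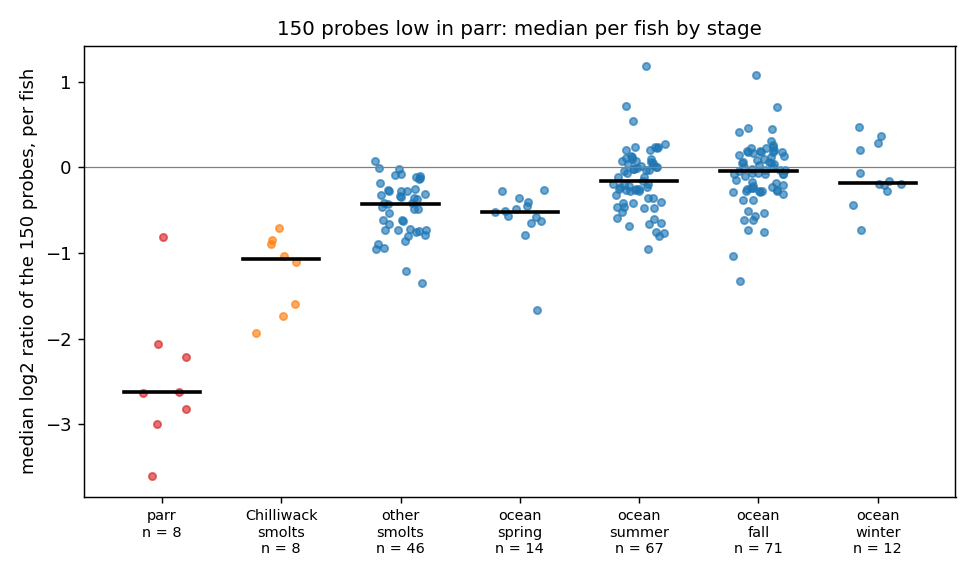
Each point is 1 fish and gives its median log2 ratio (vertical axis) over the 150 probes, with smolts of the Chilliwack River apart from the other smolts, and bars at group medians. Parr 1, at -0.82, sits apart from the other 7 parr. The median of the 8 Chilliwack smolts, -1.07, lies between those of parr and of the other smolts. The ranges of the Chilliwack smolts (-1.94 to -0.71) and of the other smolts (-1.35 to 0.07) overlap, and parr 1 lies within both.

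The parr arrays measured the members about as often as other probes. Of the 150, 129 (86.0%) were measured on all 8 parr arrays, against 85.8% of all 16802 probes, and 1 member was measured in as few as 3 parr. In position on the array they were spread over all columns and rows, with 19 to 28 members in each sixth of the columns and 21 to 31 in each sixth of the rows. Another member lay within 2 columns and 2 rows for 14 members, a number that was not compared with other probes.

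The member with the widest gap was C219R011. Its log2 ratio was -1.32 in parr 1, and in parr 2 to 8 it was -4.32, -4.13, -5.57, -5.79, -5.47, -5.37 and -4.47. Thus 7 parr lay at or below -4.13, as did 3 of the 54 smolts, and parr 1 lay among the other smolts. In the 54 smolts it ran from -6.59 over a median of -1.29 to 1.32. The smolts differed by origin: the hatchery means were -2.34 ± 0.75 (Capilano, n = 10), -1.78 ± 1.27 (Chehalis, n = 9) and -3.63 ± 1.74 (Puntledge, n = 10). The wild means were 0.05 ± 0.71 (Capilano, n = 10), 0.03 ± 0.75 (Chilliwack, n = 8) and 0.11 ± 0.90 (Salmon River, n = 7). Within the Capilano River all 10 hatchery smolts, at -3.41 to -1.25, lay below all 10 wild smolts, at -1.16 to 1.04. The change was -2.48 (SE 0.35, limma adjusted p = 9.66e-05), a 5.58-fold lower ratio in hatchery smolts. At sea no such difference passed the test. Hatchery fish of the Strait of Georgia in the summer of 2009 had -0.19 ± 0.56 (n = 25) and wild fish -0.07 ± 0.98 (n = 27), with a limma adjusted p of 0.784. In fall the values were -0.83 ± 1.36 (n = 26) and -0.57 ± 1.05 (n = 27), with a limma adjusted p of 0.998.

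The second widest gap belonged to C164R142, which ran the other way in smolts. Its log2 ratio in parr 1 to 8 was -2.16, -6.02, -4.81, -2.93, -7.42, -3.95, -5.51 and -5.42. The wild smolts were low as well, with means of -3.84 ± 1.07 (Chilliwack, n = 8), -2.43 ± 1.06 (Capilano, n = 10) and -2.66 ± 0.97 (Salmon River, n = 7). Hatchery smolts lay higher, at -1.12 ± 0.49 (Capilano, n = 10), -0.74 ± 0.34 (Chehalis, n = 9) and -0.60 ± 0.90 (Puntledge, n = 10). Within the Capilano River the change for hatchery against wild was 1.41 (SE 0.38, limma adjusted p = 0.00446). The 8 Chilliwack smolts ran from -5.06 to -2.21, within the range of the parr. At sea the stage means lay between -1.80 in spring and -0.70 in fall.

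**Figure D2:**
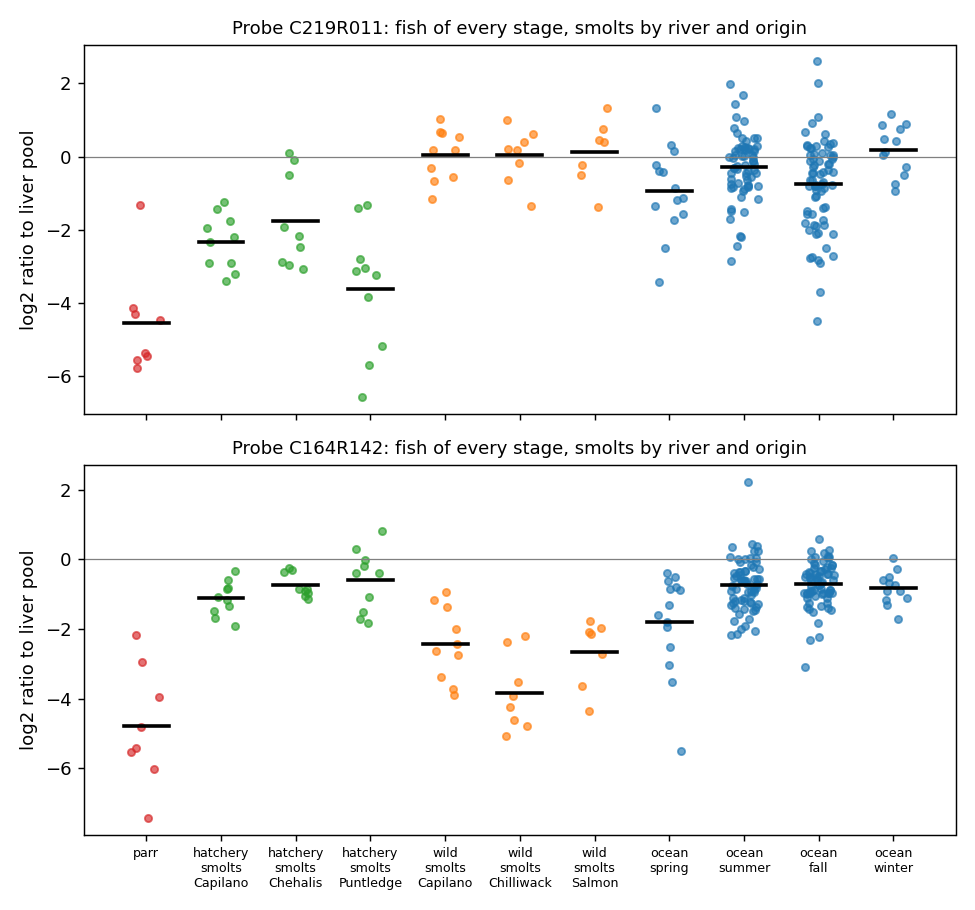
Log2 ratio to the liver pool (vertical axis) of the 2 probes with the widest gap, 1 point per fish, with smolts split by river and origin and bars at group means. C219R011 is low in the 3 hatchery smolt groups and near 0 in the 3 wild ones, and C164R142 is low in the wild smolt groups, lowest in those of the Chilliwack at -3.84.

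Each attribute that all parr shared was then examined among other fish, within 1 stage. The rule used stage means and no difference within a stage. The smolt mean, however, came mostly from smolts of other rivers than the Chilliwack. With that mean taken from Chilliwack smolts alone, 83 of the 150 members still met the rule. The counts for Chilliwack smolts are therefore not independent of the rule. The Chilliwack smolts were of the river and year of the parr, but wild. They were tested against the other 46 smolts with limma, each of the other 5 river-by-origin groups weighted equally, with p-values adjusted over all probes by Benjamini-Hochberg and a call at an adjusted p below 0.05. Year and river cannot be told apart here, and the other 5 groups included hatchery smolts, so rearing origin also enters the contrast. Of the 4 slides with Chilliwack smolts, 1 also held other smolts, and the slide was a random block.

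The Chilliwack smolts were lower than the other smolts for 56 members (37.3%) and higher for 2 (1.33%). Over all 16797 probes tested, 4.38% were lower and 2.96% were higher. The median change of the members was -0.71 on the log2 scale, against -0.02 over all probes. The 150 probes of the mirror rule gave 8 lower and 9 higher, with a median change of 0.00. Among the 1179 probes that met the rule before the limit of 150, 243 (20.6%) were lower and 17 (1.44%) higher, with a median change of -0.42. In order of means, the Chilliwack smolts lay below all 5 other smolt groups for 66 members (44%, against 15.5% of all probes) and above all 5 for 2 (1.33%, against 14.3%). The per-fish medians of the Chilliwack smolts ran from -1.94 to -0.71, and 7 of the 8 lay below parr 1. The other 46 smolts ran from -1.35 to 0.07.

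The count was smaller against wild smolts alone. In that alternative, added after the data were seen, 27 members were lower and 1 higher, against 5.03% and 2.33% of all probes. With quantile normalization between arrays the members gave 29 lower and 1 higher, against 1.37% and 1.42% of all probes. With fork length as a covariate they gave 50 lower and 2 higher, against 4.19% and 2.64%. Chilliwack smolts were 10.2 ± 1.11 cm long (n = 8) and the other smolts 11.4 ± 1.34 cm (n = 46). Without any 1 of the Chilliwack smolts, 38 to 60 members were lower, the fewest without smolt 2, whose median of -1.94 was the lowest and without which 1.64% of all probes were lower. For the 150 probes chosen without parr 1, 57 were lower and 2 higher.

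Over all 150 members the Chilliwack mean lay below the parr mean for 6, within 0.5 above it for 38 and at least 1 above it for 82. Without parr 1, none lay below the parr mean. The distance of the Chilliwack smolts from parr was 1.14 in the median member, and that of all 54 smolts was 1.66. The parr values here are those the rule used and are given as description.

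C164R142 and C134R121 had the largest changes among the members called lower. C134R121 had -4.01 ± 0.88 in Chilliwack smolts (n = 8, from -5.52 to -2.99) and -1.55 ± 1.15 in the other smolts (n = 46, from -4.99 to 0.35). In parr 1 to 8 it was -2.92, -6.17, -4.51, -3.06, -7.44, -3.72, -4.93 and -6.41. The groups of smolts overlapped, with 40 of the other 46 above the highest Chilliwack smolt. Its change was -2.29 (SE 0.35, limma adjusted p = 7.17e-05), and that of C164R142 was -2.30 (SE 0.36, limma adjusted p = 7.17e-05). Against wild smolts alone C134R121 and C164R142 did not pass, at changes of -1.30 and -1.23 with limma adjusted p-values of 0.103 and 0.101.

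The 2 members called higher in Chilliwack smolts were C020R020 and C219R011. In C020R020 the Chilliwack smolts had 0.80, 1.89, 2.95, 3.28, 3.63, 2.54, 0.11 and 1.98, a mean of 2.15 ± 1.21 (n = 8), against -1.19 ± 2.02 in the other smolts (n = 46). Its 8 parr ran from -5.38 to -2.86. All 8 Chilliwack smolts thus lay above the pool and all 8 parr below it. The change was 3.12 (SE 0.49, limma adjusted p = 7.17e-05). Other smolt groups differed widely in this probe, from -3.30 ± 0.49 in Capilano hatchery smolts (n = 10) to 1.17 ± 1.22 in Puntledge hatchery smolts (n = 10). For C219R011 the change was 1.52 (SE 0.48, limma adjusted p = 0.0400). That call was lost with quantile normalization (adjusted p = 0.0875), with fork length as a covariate (0.0982) and without any 1 of smolts 2, 3, 4, 5 and 7 (0.0517 to 0.106). Against wild smolts alone the change was -0.16 (limma adjusted p = 0.826).

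**Figure D3:**
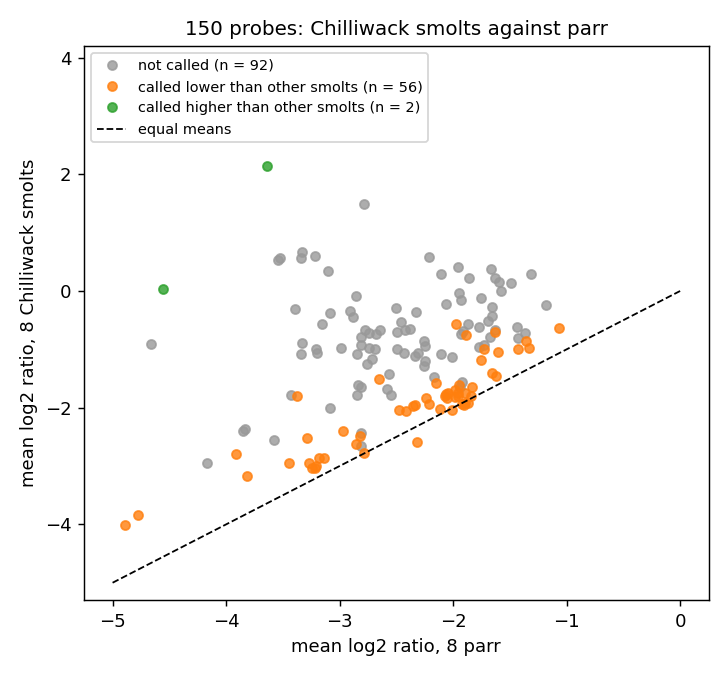
Each point is 1 of the 150 probes, with the mean log2 ratio of the 8 parr on the horizontal axis, the mean of the 8 Chilliwack smolts on the vertical axis and a dashed line at equal means. Colours give the calls against the other smolts, and since the parr means chose the points and the Chilliwack means enter the calls, distances from the line are a description. Of the 150 probes, 6 lie below the line and 82 at least 1 above it.

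All parr were hatchery fish, and origin was tested within the smolts of 1 river and year. Hatchery smolts of the Capilano River were higher than wild ones for 52 members (34.7%) and lower for 21 (14.0%). Of all 16802 probes, 24.7% were higher and 24.8% lower. Of the 56 members called lower in Chilliwack smolts, 30 were higher and 0 lower here, an overlap that was not counted over all probes. Both contrasts used the Capilano smolts, and in the Chilliwack contrast hatchery fish were only among the other smolts. These calls are therefore not independent of each other. An unadjusted p below 0.05 was found for 81 members (54%, against 56.5% of all probes). The median change of the members was 0.45, against 0.03 over all probes. No slide held both origins, so that an effect of slide cannot be told apart from one of origin here. Hatchery smolts measured 11.6 ± 0.677 cm (n = 10) and wild smolts 10.3 ± 1.33 cm (n = 10).

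The largest rise in Capilano hatchery smolts was that of C228R104, from -2.75 ± 1.58 in wild smolts (n = 10, from -5.13 to -0.32) to -0.50 ± 0.38 in hatchery smolts (n = 10, from -1.14 to 0.15). Of the wild smolts, 8 lay below all hatchery smolts. The change was 2.33 (SE 0.57, limma adjusted p = 0.00225). C209R008 was next, with -2.10 ± 1.61 in wild and -0.09 ± 0.58 in hatchery smolts (n = 10 each) and a change of 2.09 (SE 0.60, limma adjusted p = 0.00686). The largest fall was that of C235R018, from 0.52 ± 2.40 in wild to -1.82 ± 1.45 in hatchery smolts (n = 10 each), a change of -2.58 (SE 0.90, limma adjusted p = 0.0218). Wild smolts ran from -4.95 to 2.32 in this probe, and the groups overlapped. Second to it in size was C219R011, described above.

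Over the 3 hatchery and the 3 wild groups of smolts, all hatchery means lay above all wild means for 38 members (25.3%, against 12.3% of all probes). All hatchery means lay below all wild means for 5 members (3.33%, against 11.0%), and C219R011 was 1 of the 5. Rivers and years differ between these groups, and the order was not tested.

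At sea, origin was tested in fish of the Strait of Georgia in 2009. No member passed in summer (25 hatchery, 27 wild) or in fall (26 hatchery, 27 wild), and neither did any of the 16802 probes with limma (0% in each direction in both seasons). At an unadjusted p below 0.05 there were 2 members in summer (1.33%, against 7.52% of all probes) and 4 in fall (2.67%, against 3.71%). The median change of the members was -0.07 in summer and 0.00 in fall.

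Catch year was tested in wild fall fish of the Strait. Stock and catch area differed with year. By the labels no fish of 2008 was of the ECVI or S_Main stock, against 9 and 8 fish of 2009. From the middle Strait came 6 of the 8 fish of 2008 and 10 of the 27 of 2009. The test did not separate year from stock or area. Fish of 2009 (n = 27) were higher than fish of 2008 (n = 8) for 2 members (1.33%), and no member was lower. Of all probes, 1.72% were higher and 1.30% lower. At an unadjusted p below 0.05 there were 30 members (20%, against 22.5% of all probes). The median change of the members was -0.16, and the per-fish medians of the members ran from -0.76 to 0.44 in 2009 and from -1.32 to 0.46 in 2008, where the fish at -1.32 stood apart from the other 7. C032R088 had 0.16 ± 0.70 in 2009 and -1.06 ± 1.15 in 2008, a change of 1.29 (SE 0.36, limma adjusted p = 0.0382). C186R149 had -0.58 ± 0.79 in 2009 and -1.78 ± 0.49 in 2008, a change of 1.18 (SE 0.31, limma adjusted p = 0.0312). Neither passed with quantile normalization, which left no member called, C186R149 did not pass with fork length as a covariate (limma adjusted p = 0.0595), and no slide held both years. The summer catch held 5 fish of 2008, which were not tested. Their per-fish medians ran from -0.96 to -0.19, and those of the 52 Strait fish of 2009 from -0.76 to 0.72.

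Parr were the smallest fish, and the slope on fork length was tested within stages. No member passed in parr (n = 8, from 4.7 to 5.5 cm), in smolts within their river-by-origin groups (n = 54), or in Strait fish of 2009 in summer (n = 52) and fall (n = 53). Over all probes with limma, no probe was called in parr and 0.00595% or 0.0119% in one direction in the other 3 stages. At an unadjusted p below 0.05 there were 9 members in parr (6%, against 2.33% of all probes), 18 in smolts (12.0%, against 3.60%), 6 in summer (4%, against 6.14%) and 36 in fall (24.0%, against 6.83%). In fall the median slope was -0.05 per cm, with a slope below 0 in 108 of 150 members. No slope passed the adjusted test. In simulated data with a slope of 2 per cm in the 8 parr, the fit recovered 0% of 200 changed probes, so the slope in parr had no power at that size.

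Sex was tested in summer and fall fish of the Strait in 2009 with season as a covariate (61 males, 43 females). No member was called, with 4 at an unadjusted p below 0.05 (2.67%, against 2.69% of all probes), and limma called 1 probe of all (0.00595%).

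Catch area gave a small count, and stock differed with it. The 9 wild west coast fish of summer were labelled as of the Columbia (8) or North (1) stock, and none of the 27 Strait fish was, so area and stock cannot be told apart in summer. No slide held wild summer fish of both areas, so slide cannot be told apart from area there either. In fall the 9 west coast fish were of 5 stocks, with 2 of the ECVI stock, which also gave 9 of the 27 Strait fish. Wild west coast fish were higher than wild Strait fish for 9 members (6%) and lower for 1 (0.667%) in the summer of 2009 (9 and 27 fish), and again for 9 and 1 in fall (9 and 27 fish). Of all probes, 2.61% were higher and 3.71% lower in summer, and 4.05% and 3.93% in fall. The members with an unadjusted p below 0.05 numbered 45 in summer (30%, against 26.8% of all probes) and 35 in fall (23.3%, against 30.9%). The median change of the members was 0.36 in summer and 0.39 in fall, against -0.03 and 0.00 over all probes. No member was called in both seasons, with 10 called in each. This overlap was not counted over all probes, so it is not read as a difference between the seasons. In fall the west coast fish were longer, at 29.5 ± 2.37 cm against 23.3 ± 2.54 cm, and with fork length as a covariate 2 members were called higher. Of all 16802 probes, 15 were then higher and 5 lower. In that fit the median change of the members was 0.72, against -0.005 over all probes, and 129 of the 150 lay above 0. An unadjusted p below 0.05 was then found for 60 members and for 1985 of all 16802 probes. All but 1 of the west coast fish were longer than all but 1 of the Strait fish. The fit with length therefore separates area from length poorly. With slide as a fixed block, the fall change came only from the 1 slide that held wild fish of both areas. That slide held 1 west coast fish and 1 Strait fish, so the fit compared 2 fish and cannot speak for the 9 and 27. Its median change of the members was 0.87, against -0.03 over all probes. The west coast fish of that slide was fall fish 62, whose member median, at 0.70, stood apart as high among the west coast fish. In summer 2 members were called in all with quantile normalization and 1 when the count of probes measured per array entered the fit. Of all probes, 104 were higher and 101 lower with the former, and 99 and 120 with the latter.

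In summer the largest change was that of C197R085, which had 0.89 ± 2.18 on the west coast (n = 9, from -1.68 to 4.13) and -1.32 ± 1.46 in the Strait (n = 27, from -3.50 to 3.55). Its change was 2.21 (SE 0.66, limma adjusted p = 0.0396). C049R021 had 1.26 ± 1.49 and -0.46 ± 0.86, a change of 1.69 (SE 0.42, limma adjusted p = 0.0182). Both lost the call with quantile normalization (limma adjusted p = 0.0658 and 0.0552) and with the count of measured probes in the fit (0.101 and 0.0531). The member called lower was C169R162, with a change of -0.91 (SE 0.25, limma adjusted p = 0.0298), which lost the call with that count (0.0945) and with fork length (0.0721). In fall the largest were C254R093, with 1.07 ± 0.37 on the west coast and -0.41 ± 0.76 in the Strait, and C027R152, with 0.99 ± 0.29 and -0.51 ± 0.81. Their changes were both 1.49 (SE 0.29, limma adjusted p = 0.00607 and 0.00693). With fork length as a covariate they were 1.07 and 0.91 and lost the call (limma adjusted p = 0.251 and 0.346), and so they did with slide as a fixed block (0.999 for both). The groups overlapped in each of these probes. C191R144 was lower on the west coast in fall, with a change of -0.74 (SE 0.22, limma adjusted p = 0.0359). With fork length it was -0.27 (0.715), and the call was also lost with quantile normalization (0.0966). Between the fish of the shared slide the change of C191R144 was -0.29.

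**Figure D4:**
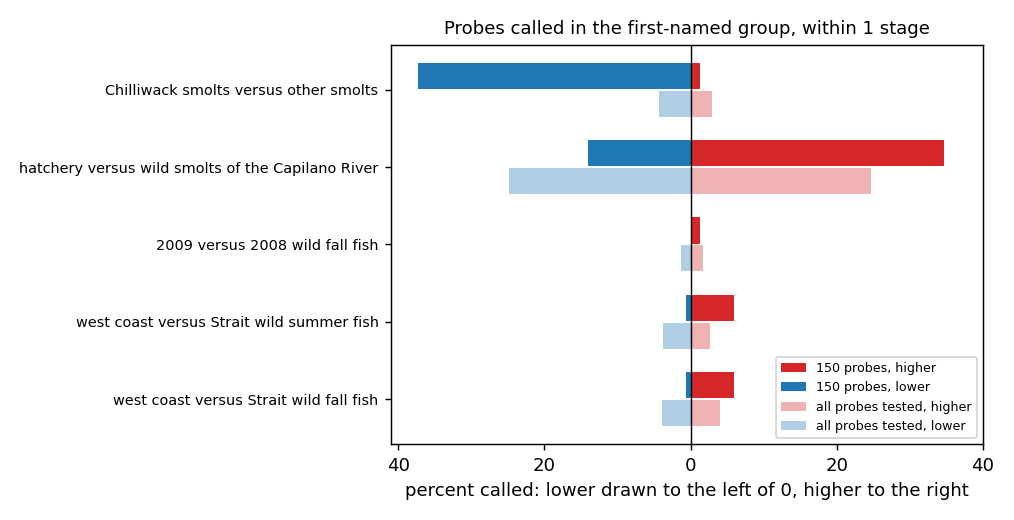
Horizontal bars give the percentage of probes called by limma as higher (right of 0) or lower (left of 0) in the first-named group, for the 150 probes (full colour) and for all probes tested (pale). The comparisons without a called member are left out. The longest bar of the 150 probes is the 37.3% lower in Chilliwack smolts, against 4.38% of all probes. All Chilliwack smolts were wild, and the other smolts were wild and hatchery fish. The other smolts also made up most of the smolt mean that the rule used.

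The members did not vary as 1 block among the 218 fish of other stages. After each probe's stage mean was removed, 2 members correlated with a median r of 0.12 over these fish, against 0.00 for 1500 probes drawn from all tested and 0.08 for the mirror rule's 150. The fish share slides, years and rivers, so these are descriptions. Of 11175 pairs, 180 lay above 0.9. Grouped by average linkage at r = 0.6, the members formed 1 set of 28, 1 of 13 and 1 of 8, while 67 lay in sets of 2 to 7 and 34 stood alone. With unnamed probes, it is unknown whether probes of 1 set read the same gene. The 3 sets were formed from the fish of the comparisons above, Chilliwack smolts included, so the counts below are not independent of how they were formed.

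The set of 28 had a median stage mean of -1.93 in parr and -0.47 in smolts. It was -0.40 for spring fish, -0.28 for summer, -0.10 for fall and 0.53 for winter fish. In parr 1 its median was 0.36, above the pool, and in parr 2 to 8 it lay between -3.11 and -1.57. Parr 7 had a value for only 13 of the 28 probes, and every other parr for at least 24. In Chilliwack smolts it lay between -2.43 and -0.72, and 24 of the 28 were called lower there than in other smolts, against 4.38% of all probes. In hatchery against wild Capilano smolts, 10 were called higher, where 24.7% of all probes and 34.7% of the 150 members were. This set also held 24 of the 36 members with an unadjusted p below 0.05 on fork length in fall, with a median slope of -0.19 per cm and a smallest limma adjusted p of 0.236.

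The set of 13 lay lower, with a median of -3.14 in parr, -1.50 in smolts and between -0.83 and -0.54 at sea. Here parr 1, at -2.48, did not stand apart from the other parr, at -4.44 to -1.85. Chilliwack smolts were at -3.84 to -2.12 and all lay within the range of the parr. Of the 13, 11 were called lower in Chilliwack than in other smolts and all 13 higher in hatchery than in wild Capilano smolts, by a median of 2.0. Over all probes the shares called were 4.38% and 24.7%. In the 12 winter fish the 5 females had -0.09 ± 0.84 and the 7 males -1.41 ± 0.81 (mean ± SD over fish of the mean over the set's probes). Of the females 4 were caught off the west coast and 1 in the middle Strait, and of the males 3 and 4. The females lay on 4 slides and the males on 2, with 1 slide in common. The 4 males of the middle Strait were all wild fish of the Fraser stock on 1 slide. Sex was therefore not separated from slide, origin and stock. The set's median change was 1.37, and 1.08 with catch area as a covariate, where the smallest limma adjusted p was 0.438. Over all 150 members the median change was 0.20, and 0.05 with catch area. No member passed the test between winter females and males, where limma called 3 of all 16802 probes (0.0179%). At an unadjusted p below 0.05 there were 17 members (11.3%, against 5.97% of all probes), and 12 of them were in this set, with a smallest limma adjusted p of 0.224.

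The set of 8 had a median of -1.97 in parr and -0.66 in smolts, and between -0.17 and 0.50 at sea. Parr 1 and parr 5, at -0.08 and -0.23, lay above the other 6, which ran from -3.68 to -1.82. Chilliwack smolts ran from -3.29 to -0.38. Of the 8, 6 were called lower in Chilliwack smolts and 5 higher in Capilano hatchery smolts, against 4.38% and 24.7% of all probes. Parr 1 was thus as low as other parr in 1 of the 3 sets, and parr 5, the lowest parr over all members, was among the highest in the set of 8.

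**Figure D5:**
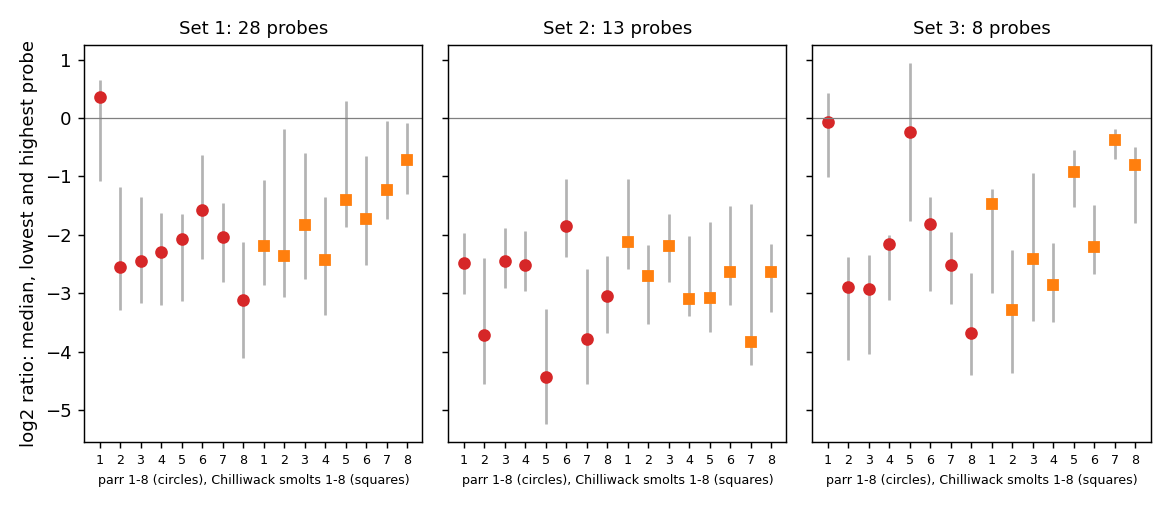
Median log2 ratio (vertical axis) of each of the 3 sets in parr 1 to 8 (circles) and in the 8 Chilliwack smolts (squares), with grey lines from the lowest to the highest probe of the set. Parr 1 lies at 0.36 in the set of 28 and at -2.48 in the set of 13, where parr and Chilliwack smolts overlap.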

How the data were processed

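The authors deposited 1 log2 ratio per probe and array in the series' value table. How arrays were scanned, corrected and normalized, and why 49.9% of cells are empty, is not given in the sources used here. Base 2 and the numerator were inferred: probe means fell with probe variance with a slope of -0.364, against -0.347 for fish over pool. Of 25425 pairs of arrays, 427 correlated below -0.3 (lowest -0.46), 8 of them with a parr array. All fish carried 1 dye per the labels' protocols, so the direction was kept.

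Ratios were used as deposited, with empty cells left out and none imputed, and fitted with limma 3.58.1 (R 4.3.3) across all probes measured on at least 80% of arrays. Slide was a random block (consensus correlation 0.184, from 3000 probes). The call was an adjusted p below 0.05, by Benjamini-Hochberg over all probes tested. ± is the SD between fish, and each fish was 1 array. Fits were tested on simulated data. Members, comparisons and groupings were chosen with earlier results of these data known. Named are the 2 members with the widest gap, those at the limit of 150, and at most 2 called members per direction and comparison, by size of change. Alternatives varied slide, normalization, filter and covariates.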

Additional observations from a re-analysis of the deposited data

Results flagged for a closer look

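Values per fish were checked for 1 fish far from its group, in 72 groups of 4 to 10 values. In 7 of them 1 fish stood apart by Dixon's test at 95%, where chance alone gives about 1 in 20. Parr 1 was high in the set of 28, at 0.36 against -1.57 for the next parr, and in C219R011, at -1.32 against -4.13 for the next parr. A wild fall fish of 2008 (fall fish 7) was low in the median over all 150 members, at -1.32 against -0.28 for the next of 8 fish. It was also low in the set of 8, at -2.08 against 0.91, and in C164R142, at -3.08 against -1.11. A wild west coast fish of fall 2009 (fall fish 62) was high in the median over the members, at 0.70 against 0.26 for the next of 9 fish. A winter female (winter fish 5) was low in the set of 8, at -0.31 against 0.64 for the next of 5 fish. This female was caught in the middle Strait and the other 4 off the west coast. The cause was not tested for any of them.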

How the results depend on the processing

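The number of the 150 probes that stayed among the 150 widest was 93 when only probes measured on every array entered and 79 when the smolt mean was that of Chilliwack smolts. Without 1 parr at a time it was 113 to 141, and 101 to 146 under the other alternatives except the higher minimum gap of 0.8, which kept 150. Counts of members called in either direction moved by over 1.5 times in 5 of the 13 comparisons. For Chilliwack smolts, 58 became 30 with quantile normalization and 28 against wild smolts alone, and 39 to 62 without 1 Chilliwack smolt. For catch year, 2 became 16 without the slide block, 0 with quantile normalization, 4 with the number of measured probes and 4 with fork length as a covariate. For area in summer, 10 became 20, 2, 1 and 6 under the same changes in the same order. For area in fall, 10 became 5 with quantile normalization and 2 with fork length. Slide as a fixed block left 1 fish of each area there, so no count is read from that fit. For length in smolts, 0 became 19 without the river-by-origin term. The cause was not tested. In the other 8 comparisons no count moved by over 1.5 times, and leaving out any 1 winter fish left 0 called. Of 115 repeats of the named changes, 89 kept direction and call, 25 lost the call, and that of C219R011 reversed to -0.16 against wild smolts alone. Those 25 include the repeats of area in fall with slide as a fixed block, which compared 1 fish of each area.

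A fixed slide block was not run for 4 comparisons, whose shared slides do not connect all the groups compared, and the second deposited table, which holds the same ratios, was not run. No paired analysis was possible because each fish lay on 1 array and the replicate numbers, given in accession order, pair no fish. Signal over background is not given in the sources used here, so no limit per probe is given, and 8 parr on 2 slides limit all that is said of parr.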
